A study of Mus musculus with 9 samples.

Results

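The genes described here are 40 interferon-stimulated genes, a hand-picked list that runs from the RNA sensors and transcription factors of the antiviral response to its effector proteins. They were found in the deposited tables through the gene identifiers of the GENCODE M1 annotation. Of the 40 symbols, 39 matched that annotation directly, and *Ifi27* was found there under the older name *Ifi27l1*. A row was listed for 36 of them in the table of *Srrm2* shRNA 1, which holds 13424 genes, and for 37 in the table of shRNA 2, which holds 13478 genes. All 36 were in both tables, and *Oas2* was listed only in the second. *Ifi44*, *Rsad2* and *Eif2ak2* had a row in neither.

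The RNA came from AML12 cells, a hepatocyte line established from mouse liver, grown with fetal bovine serum, ITS supplement and dexamethasone. There were 9 libraries in 3 groups of 3, labelled control, *Srrm2* shRNA 1 and *Srrm2* shRNA 2, and the labels give 5 days of infection with the lentivirus that carries the hairpins against *Srrm2*, which encodes a scaffold protein of nuclear speckles. The labels do not give an infection or its length for the control libraries. All groups are 1 cell line, and no separate source of the replicates is given in the labels. No group is labelled as treated with interferon. Each table gives, per gene, the authors' mean normalized count over the control libraries and the libraries of 1 hairpin. This pooled mean is the value described below. Since it has no spread, no test was made, and no change against the control is given. By the design of the study both tables are taken to hold the same control libraries, although the labels do not settle this. Like levels or orders in both are therefore not read as a replication.

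Interferons are secreted proteins that bind paired receptors on the cell surface. Type I and type III interferons activate the kinases *Jak1* and *Tyk2*, which phosphorylate *Stat2*, and *Stat2* joins *Irf9* in a complex that binds the interferon-stimulated response element, a repeat of GAAA in the promoters of target genes. The products of those genes sense foreign RNA, block viral translation and replication, or feed back on the pathway. Hepatocytes are among the cells that respond to type I interferon, and many of these genes are known to be transcribed at a basal level in cells to which none was added.

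The promoters are shown first, since an element known from many genes of this kind was searched in them. A promoter is here the window from 250 bases before to 50 bases after the gene start of GENCODE M1 on NCBIM37, the assembly also called mm9. The search was for GAAA repeated after a gap of any 2 bases, on either strand, with overlapping matches allowed. A match was found for 19 of the 40 genes (47.5%), against 4.53% of all 37310 annotated genes and 3.78% of the 22380 protein-coding genes. Of the 19, 10 held 2 or more matches, and *Rtp4* held the most with 4. The bases upstream of 4 genes are printed to show the element in a gene listed at a high level (*Bst2*), in genes listed at low levels (*Isg15* and *Rtp4*), and a promoter without it (*Parp14*). Capitals mark the matched bases, and each sequence ends at the base before the gene start. *Isg15* lies on the minus strand (chr4:155574928-155575177) and holds 3 overlapping matches, the first beginning 78 bases before the start. *Bst2* is also on the minus strand (chr8:74061337-74061586), with 2 overlapping matches from 165 bases before the start. *Rtp4* is on the plus strand (chr16:23609755-23610004). *Parp14*, on the minus strand (chr16:35871631-35871880), holds none.
Isg15: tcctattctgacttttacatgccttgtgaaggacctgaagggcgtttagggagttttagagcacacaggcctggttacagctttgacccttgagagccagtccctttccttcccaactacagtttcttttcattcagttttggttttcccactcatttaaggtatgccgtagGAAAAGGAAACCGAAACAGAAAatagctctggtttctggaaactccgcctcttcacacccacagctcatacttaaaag
Bst2: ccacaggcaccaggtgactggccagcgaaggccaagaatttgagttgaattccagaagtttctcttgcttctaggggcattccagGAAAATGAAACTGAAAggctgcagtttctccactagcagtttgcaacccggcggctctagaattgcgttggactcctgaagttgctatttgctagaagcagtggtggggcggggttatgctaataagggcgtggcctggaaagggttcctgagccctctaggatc
Rtp4: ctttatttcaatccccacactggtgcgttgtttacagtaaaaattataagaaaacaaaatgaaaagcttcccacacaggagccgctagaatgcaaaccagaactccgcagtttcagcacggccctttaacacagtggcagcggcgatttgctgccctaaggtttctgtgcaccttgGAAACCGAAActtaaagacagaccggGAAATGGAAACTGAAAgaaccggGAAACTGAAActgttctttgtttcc
Parp14: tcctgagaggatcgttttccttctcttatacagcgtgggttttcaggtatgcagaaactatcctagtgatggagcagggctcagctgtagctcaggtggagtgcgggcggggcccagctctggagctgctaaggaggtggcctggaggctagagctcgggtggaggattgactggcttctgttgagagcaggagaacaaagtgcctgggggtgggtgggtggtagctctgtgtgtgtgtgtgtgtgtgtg

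Within the element the bases between the repeats varied from gene to gene. To show this, stretches of 30 bases around the match are printed for 7 genes of different roles, each read on the strand of the match, with the match in capitals. They are *Usp18* (chr6:121195855-121195884, plus strand), *Ifit1* (chr19:34715284-34715313, minus strand), *Ifit3* (chr19:34657887-34657916, minus strand), *Oas1a* (chr5:121357532-121357561, minus strand), *Gbp3* (chr3:142222956-142222985, minus strand), *Ddx58* (chr4:40186837-40186866, plus strand) and *Trim21* (chr7:109713961-109713990, minus strand).
Usp18: ggatctagggGAAAACGAAAgcttggcggt
Ifit1: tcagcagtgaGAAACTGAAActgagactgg
Ifit3: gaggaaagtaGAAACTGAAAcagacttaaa
Oas1a: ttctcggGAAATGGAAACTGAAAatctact
Gbp3: gatctggGAAATAGAAACTGAAActgtgtc
Ddx58: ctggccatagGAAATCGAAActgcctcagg
Trim21: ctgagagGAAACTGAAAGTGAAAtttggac

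*Oas1a*, *Gbp3* and *Trim21* each carried an overlapping pair of matches. Positions were compared for 1 run of matches per gene, the run with the most matches and then the nearest. This run began with a match wholly before the gene start in 12 of the 19 genes. In the other 7 that match reached or followed the start, as in *Trim21* (at the start) and *Ddx58* (5 bases after it). The full element of textbooks has CT after the repeat, and this longer form was found in the windows of 11 of the 40 genes (27.5%), against 0.33% of all annotated genes. By role, 4 of the 5 RNA sensors, 3 of the 5 Oas genes and 2 of the 3 Ifit genes held the shorter form, but 1 of the 6 transcription factors (*Irf2*) and 1 of the 6 Parp, *Dtx3l* and Trim genes (*Trim21*). A match is a description of letters, and a window without one says only that these letters are not there. These windows rest on 1 start per gene. In promoter windows of the RefSeq annotation, *Stat2* held a match as well as *Irf2*. In windows from 1000 bases before to 100 after the start, 23 of the 40 genes held a match (57.5%), against 15.0% of all genes. *Mx1*, *Mx2*, *Oasl1* and *Stat2* are the 4 genes that gained one in the wider window.

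**Figure D1:**
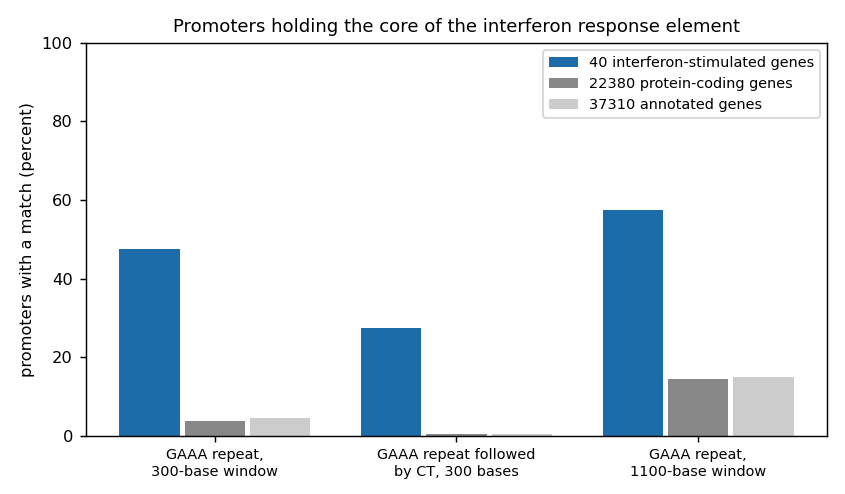
Percent of promoters that hold GAAA repeated after a gap of any 2 bases, the same repeat followed by CT, and the repeat in a wider window, for the 40 interferon-stimulated genes, all protein-coding genes and all annotated genes. The bars of the 40 genes stand at 47.5%, 27.5% and 57.5%, against 4.53%, 0.33% and 15.0% of all annotated genes.

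A row in the shRNA 1 table was listed for 90% of the members, against 56.4% of the 22380 protein-coding genes of the annotation. Among listed genes, the members stood at low to moderate levels. In the shRNA 1 table their median mean normalized count was 30.9, against 147 for all listed genes, and in the shRNA 2 table it was 29.95 against 151. Of the 36 genes in the first table, 6 had a mean below 10, 14 a mean from 10 to below 100 and 16 a mean of at least 100, with 566 for *Stat2* the highest. These were 16.7%, 38.9% and 44.4% of the 36, against 13.9%, 27.6% and 58.4% of all genes listed there. To compare genes with each other, means were divided by the length of the merged exons. On this scale the median of the 36 genes was 14.6 per kb, against 47.6 per kb for the 12628 listed protein-coding genes, and 10 of the 36 lay above that median. The levels ran over a 446-fold range, from *Bst2* to *Mx1*.

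**Figure D2:**
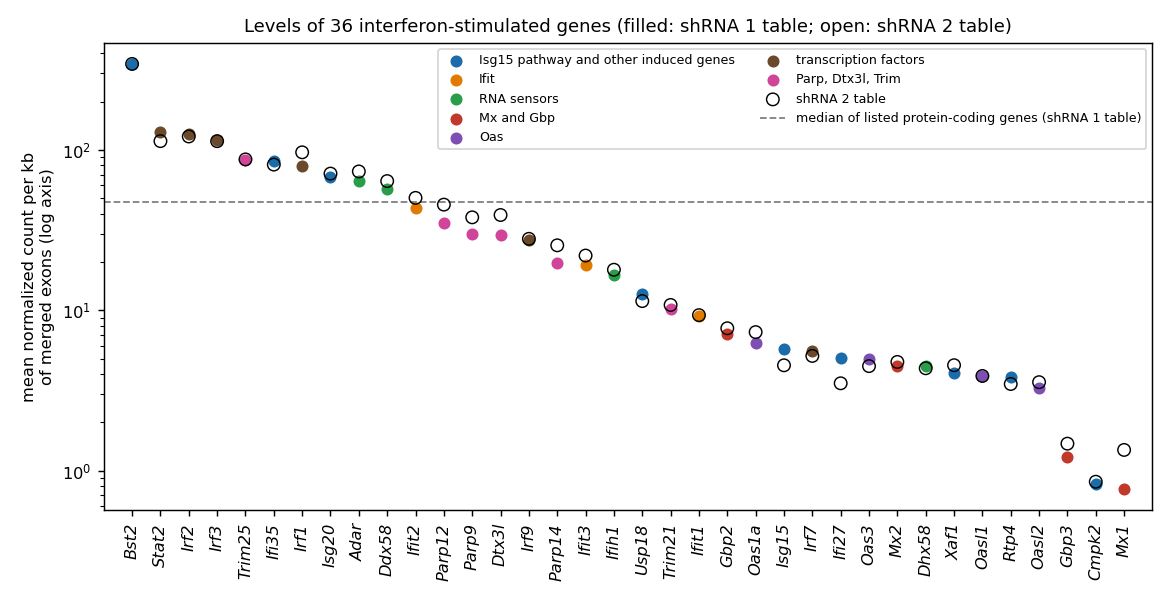
Mean normalized count per kb of merged exons (log axis) of the 36 listed interferon-stimulated genes, ordered by their level in the shRNA 1 table and coloured by role, with the shRNA 2 table as open circles and the median of listed protein-coding genes as a dashed line. *Bst2* stands highest at 342 per kb, the transcription factors *Stat2*, *Irf2* and *Irf3* follow, and *Gbp3*, *Cmpk2* and *Mx1* lie lowest, near 1 per kb.

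The transcription factors were the role with the highest levels. Their median was 97.9 per kb in the shRNA 1 table, and 4 of the 6 lay above the median of protein-coding genes. *Stat2*, the signal transducer of type I and III interferons, had mean normalized counts of 566 in the shRNA 1 table and 500 in the shRNA 2 table, or 128 and 113 per kb. *Irf2*, which competes with *Irf1* at the same element, had 311 and 301, or 125 and 121 per kb. *Irf3*, the factor phosphorylated downstream of the RNA sensors, had 370 and 361, or 116 and 113 per kb. These 3 genes are therefore listed well above most protein-coding genes in both tables. *Irf1*, an activator induced by interferon gamma, had 317 and 384, or 79.8 and 96.6 per kb. *Irf9*, the DNA-binding partner of *Stat2*, had 148 and 150, or 27.5 and 27.9 per kb. *Irf7*, the amplifier of type I interferon production, was the lowest of the role with 16.8 and 15.7, or 5.55 and 5.19 per kb.

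Among the sensors of RNA, *Ddx58*, which encodes RIG-I, had mean normalized counts of 404 and 451, or 57.3 and 63.9 per kb. *Ifih1*, which encodes MDA5, the sensor of long double-stranded RNA, had 91.5 and 98.8, or 16.6 and 17.9 per kb. *Dhx58*, which encodes the regulator LGP2, had 15.5 and 15.0, or 4.49 and 4.35 per kb. The 3 helicases of this family thus stood in the order *Ddx58*, *Ifih1*, *Dhx58* in both tables. *Adar*, which deaminates adenosine in double-stranded RNA and is also expressed from a constitutive promoter, had 437 and 498, or 64.4 and 73.4 per kb. *Eif2ak2*, which encodes the kinase PKR, was not listed. The lowest means listed in the tables were 1.56 and 1.92, but a missing row does not give the level of a gene.

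The effector genes were spread over the range. *Bst2* encodes tetherin, a membrane protein that holds budding virus at the cell surface, and its means of 261 and 263 gave 342 and 344 per kb, the highest level among the members. *Ifi35*, a partner of *Nmi*, had 147 and 140, or 85.2 and 81.0 per kb, and the exonuclease gene *Isg20* had 123 and 130, or 67.5 and 71.2 per kb. These were the only 3 of the 9 listed genes of their group above the median of protein-coding genes. *Isg15*, a ubiquitin-like modifier that is joined to other proteins, had means of only 4.32 and 3.43, or 5.72 and 4.54 per kb. *Usp18*, the protease that removes *Isg15* from its targets and dampens receptor signalling, had 22.4 and 20.2, or 12.6 and 11.4 per kb. *Xaf1*, a proapoptotic gene, had 19.0 and 21.3, *Ifi27* 7.42 and 5.14, *Rtp4* 6.07 and 5.46, and the nucleotide kinase gene *Cmpk2* 2.65 and 2.73. *Ifi44* and *Rsad2*, which encodes viperin and neighbours *Cmpk2* on chromosome 12, were not listed.

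Of the Ifit genes, a cluster on chromosome 19 whose products bind viral RNA, *Ifit2* stood highest. Its mean normalized counts were 170 and 197, or 43.3 and 50.2 per kb, whereas *Ifit3* had 33.4 and 38.3, or 19.1 and 21.9 per kb, and *Ifit1* 24.6 and 24.8, or 9.27 and 9.33 per kb. The order *Ifit2*, *Ifit3*, *Ifit1* was the same in both tables. The Oas genes, whose active enzymes make the activator of RNase L, were low. *Oas3* had 25.9 and 23.4, *Oas1a* 12.6 and 14.6, *Oasl2* 12.8 and 13.8 and *Oasl1* 10.2 and 10.2, or between 3.29 and 6.29 per kb in the shRNA 1 table, and *Oas2* was listed only in the shRNA 2 table, with a mean of 2.29. The GTPases were low as well. *Gbp2* had 18.0 and 19.4, *Mx2* 10.9 and 11.5, *Gbp3* 3.91 and 4.77 and *Mx1* 2.79 and 4.91. Ifit, Oas and Gbp genes have close copies in the genome, and since only uniquely mapped reads were counted, their levels are uncertain.

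The last role holds ubiquitin ligases and ADP-ribosyltransferases. *Trim25*, which ubiquitinates RIG-I, had means of 500 and 502, or 86.9 and 87.3 per kb, and lay above the median of protein-coding genes. *Trim21*, the cytosolic antibody receptor, had 28.4 and 29.95, or 10.2 and 10.8 per kb. The other 4 genes lay between, from 19.6 per kb for *Parp14* to 34.9 per kb for *Parp12* in the shRNA 1 table. *Parp9* and the ligase *Dtx3l* form a complex. Their genes are neighbours on chromosome 16 with *Parp14*, transcribed from opposite strands and overlapping by 682 bases, of which 458 are exonic in both genes (9.40% of the merged exons of *Parp9* and 8.0% of those of *Dtx3l*). The study describes its libraries as strand-specific, but the strand setting of the counting is not given in the sources used here, so reads from the shared bases may not be told apart.

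The tables also allow a comparison that bears on the difference of the hairpins. If both tables hold the same control libraries, then a gene with a higher mean in the shRNA 2 table than in the shRNA 1 table had a higher mean with shRNA 2 than with shRNA 1, and the ratio of the hairpins lay at least as far from 1 as the ratio of the tables. The title of each control library names it as a control, but the descriptions of 2 of the 3 point to tables other than the shRNA 2 table, so that the sharing rests on the design of the study. The tables were also normalized separately. The log2 ratio of the means was therefore centred on its median over the 11451 genes whose mean reached 10 in each table, an offset of 0.07. The error given is a counting error alone, on the assumptions of size factors near 1 and of shared control libraries, which cancel in the ratio, and does not hold the spread between libraries. Without shared controls it would be 1.41 times as large.

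The quartiles of the members' ratios were close to those of all genes. Of the 30 members that reached a mean of 10 in each table, 17 had a ratio above 0 and 13 a ratio below 0. The median log2 ratio was 0.0038, with quartiles at -0.098 and 0.12, against quartiles of -0.10 and 0.10 for all 11451 genes. By more than 25%, 1 member (*Dtx3l*) was higher in the shRNA 2 table, against a background of 3.88% of all genes, and 0 members were higher in the shRNA 1 table, against 4.41%. The members ranged from -0.25 for *Stat2* to 0.34 for *Dtx3l*, inside the central 95% of all genes (-0.40 to 0.39).

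**Figure D3:**
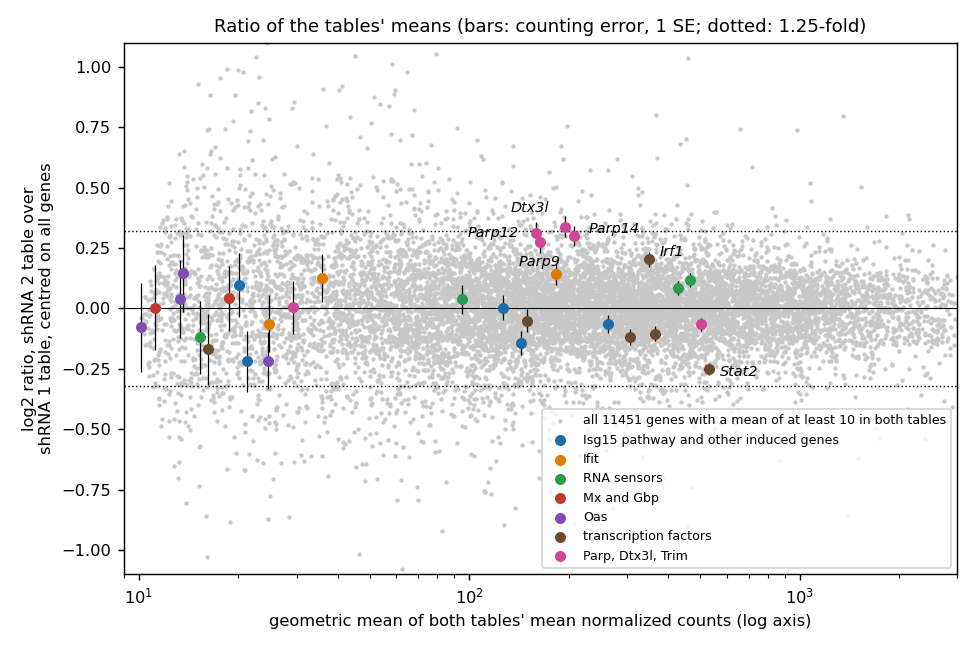
Log2 ratio of the mean in the shRNA 2 table over that in the shRNA 1 table, centred on all genes, against the geometric mean of both means (log axis), for 11451 genes (grey; points beyond the axes are not drawn) and 30 interferon-stimulated genes (coloured by role; bars are 1 SE of counting). *Dtx3l* alone lies beyond the dotted line, where one table exceeds the other by 25%, at 0.34, with *Parp12*, *Parp14* and *Parp9* just under it.

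Among the 30 members, the highest 4 ratios belonged to *Dtx3l*, *Parp12*, *Parp14* and *Parp9*. *Dtx3l* had means of 169 in the shRNA 1 table and 225 in the shRNA 2 table, a log2 ratio of 0.34 with a counting error of 0.042, or 1.26-fold. *Parp12*, a zinc finger protein on chromosome 6, had 140 and 182, a log2 ratio of 0.31 with a counting error of 0.046. *Parp14*, a large macrodomain protein, had 183 and 236, a log2 ratio of 0.30 with a counting error of 0.041. *Parp9*, the partner of *Dtx3l*, had 146 and 185, a log2 ratio of 0.27 with a counting error of 0.046. All 4 means were higher in the shRNA 2 table, at percentiles 96.6, 95.8, 95.3 and 94.3 of the ratios of all genes. At this level of expression, a mean of 100 to 1000, the central 95% of 6575 genes ran from -0.35 to 0.30. Outside it lay 3 of the 16 members there, namely *Dtx3l*, *Parp12* and *Parp14*, each by less than its counting error. Of the 14 members with a mean of 10 to 100, 0 lay outside the central 95% of the genes at that level (-0.49 to 0.55). *Parp14*, *Dtx3l* and *Parp9* lie within 1 stretch of chromosome 16 (chr16:35832960-35972691, from the first base of *Parp14* to the last of *Parp9*), so their values are not 3 separate loci.

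Of the 6 transcription factors, 5 had a ratio below 0, and *Irf1* had one above it. *Stat2* had the lowest ratio of the 30 members, -0.25 with a counting error of 0.026, and lay at percentile 7.45 of all genes. *Irf7* had -0.17 with an error of 0.15, *Irf2* -0.12 with 0.034, *Irf3* -0.10 with 0.031 and *Irf9* -0.05 with 0.048. *Irf1* was at 0.20 with a counting error of 0.031, at percentile 90.1. The median of the 6 was -0.11. By more than 25%, 0 of the 6 were higher in the shRNA 2 or the shRNA 1 table, against 3.88% and 4.41% of all genes. Of the RNA sensors, *Adar* had 0.12, *Ddx58* 0.086, *Ifih1* 0.038 and *Dhx58* -0.12. *Ifit2* had 0.14 and *Ifit3* 0.13, whereas *Ifit1* had -0.064 with a counting error of 0.12. *Trim25*, *Bst2* and *Isg20*, 3 of the more abundant members, had centred log2 ratios of -0.066, -0.065 and 0.0037. Their counting errors were 0.026, 0.036 and 0.052.

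**Figure D4:**
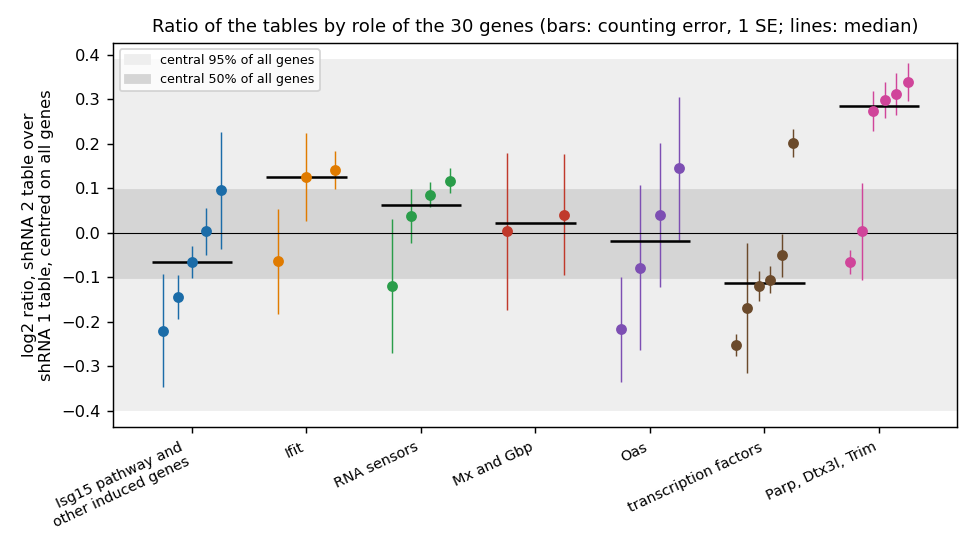
Log2 ratio of the shRNA 2 table over the shRNA 1 table, centred on all genes, for 30 interferon-stimulated genes by role (points, with bars of 1 SE of counting; black lines are medians) over the central 50% and 95% of all genes (grey bands). The Parp, *Dtx3l* and Trim genes have the highest median, 0.29, and the transcription factors the lowest, -0.11, with *Irf1* apart at 0.20.

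The 6 listed members with a mean below 10 could not be placed in this way, since their counting errors ran from 0.23 to 0.36. *Mx1* had a log2 ratio of 0.74 with an error of 0.30, from means of 2.79 and 4.91. *Ifi27* had -0.60 with 0.23, and *Isg15* -0.41 with 0.30. *Gbp3* had 0.21 with 0.28, *Rtp4* -0.23 with 0.25 and *Cmpk2* -0.03 with 0.36. At these depths a difference of the size seen for *Dtx3l* would not be detectable.

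This ratio was also set beside the GAAA repeat in the promoter. The 12 members with a match whose means reached 10 had a median log2 ratio of -0.030, and the 18 without a match one of 0.022. Their levels stood further apart. The 16 listed members with a match had a median of 8.20 per kb in the shRNA 1 table, with a range from 1.21 to 342, and the 20 without a match one of 29.7 per kb, with a range from 0.77 to 128, so that the ranges overlapped. *Dtx3l*, *Parp9*, *Parp12* and *Parp14* all lacked a match in the 300 bases searched, and in the wider window too.

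The rest of the pathway sets these genes in context. None of 13 interferon genes was listed in either table, and a gene not listed is not shown to be silent. All 6 receptor chains were listed. The highest per kb in the shRNA 1 table were *Ifngr1* with 287, *Ifngr2* with 107 and *Ifnar1* with 81.2, the first 2 being the chains for interferon gamma and the last a chain for type I interferon. Their log2 ratios were 0.14, -0.21 and 0.22, with counting errors of 0.020, 0.032 and 0.026. Of 9 genes of the Jak-Stat cascade, 9 were listed in the shRNA 1 table and 8 in the shRNA 2 table. The highest were the kinase genes *Jak2* with 338 per kb and *Jak1* with 225, and the phosphatase gene *Ptpn11* with 268, with log2 ratios of -0.059, 0.016 and -0.060. Of the 8 that reached a mean of 10 in each table, 0 differed by more than 25% in either direction. Of all genes, 3.88% were higher in the shRNA 2 table by more than 25%, and 4.41% in the shRNA 1 table.

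Of 12 adaptors, DNA sensors and further Irf genes, 11 were listed in each table, with *Ikbke* at 201 per kb, *Tbk1* at 143 and *Mavs* at 90.6 the highest. The first 2 encode kinases that phosphorylate *Irf3*, and *Mavs* is the mitochondrial adaptor of RIG-I. Their log2 ratios were 0.12, -0.069 and -0.082. Of 10 such genes with a mean of at least 10, 1 was higher in the shRNA 2 table and 1 higher in the shRNA 1 table by more than 25%. Over all genes the shares were 3.88% and 4.41%, and counts of 0 or 1 in lists this short do not set a list apart. Of 20 further interferon-stimulated genes that are not on the list of 40, 17 were listed in each table. Of these, 15 had a mean of at least 10. By more than 25%, 0 were higher in the shRNA 2 table and 1 was higher in the shRNA 1 table, against the same shares. Their highest levels were 1087 per kb for the secreted glycoprotein gene *Lgals3bp*, 476 for *Ifitm2* and 194 for the GTPase gene *Irgm1*. Their median log2 ratio was -0.12, against 0.0038 for the 30 members.

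The labelled cell type was checked on its markers. Of 10 hepatocyte markers, 9 were listed in both tables, the highest being *Krt18* at 7034, *Krt8* at 4594 and *Ttr* at 2049 per kb in the shRNA 1 table, and *Apoa2* was not listed. Of 10 leukocyte and macrophage markers, 4 were listed, with *Cd14* at 312 per kb, *Cd68* at 20.0 and *Csf1r* at 5.01 the highest, while *Emr1*, *Itgam*, *Lyz2* and *Clec4f* were not. Of 6 endothelial markers 0 were listed, of 6 stellate and fibroblast markers 2, led by *Des* at 2.14 per kb and *Col1a1* at 0.59, and of 5 cholangiocyte markers 4, led by *Spp1* at 2448, *Krt19* at 1537 and *Krt7* at 192 per kb. *Srrm2* itself had means of 3428 and 3759. A mean over control and hairpin libraries together cannot check the knockdown.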

How the data were processed

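RNA-seq was done on 9 AML12 libraries, which were grouped by their labels. The authors used TopHat2 to map reads to mm9, HTSeq to count unique pairs per GENCODE M1 gene and DESeq2 (version 1.8.2) to compare groups, per the paper and the labels. The value used is the deposited signal column of each table, the authors' mean normalized count over 6 libraries; the summed means were 6144610 and 6393460. The other 5 columns of each table hold the authors' own comparison (log2 fold change, its standard error, statistic, p-value and adjusted p-value) and were not used. Depth per library is unknown.

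The members and lists were chosen with earlier results of these data known. Named are all 40 members, *Srrm2*, the 3 genes of each other list with the highest level per kb, and members whose tables differed by more than 25%. Markers without a row and the genes of the closing part were named after their values were seen. Symbols, exon lengths and gene starts came from GENCODE M1 and NCBIM37, and older names from the RefSeq table of GRCm38.p6. Ratios were computed with Python 3.11.15, numpy 2.4.6 and pandas 2.3.3, drawn with matplotlib 3.10.9 and tested on simulated data. Alternatives were other minimum means, lengths, scalings, folds, motifs and windows, of which RefSeq windows and a centring for the counts were added after the data were seen.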

Additional observations from a re-analysis of the deposited data

How the results depend on the processing

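The median level per kb was 14.7 with the longest transcript in place of merged exons and 11.4 in the shRNA 2 table. The order of single genes depended on the length used. Per kb of the longest transcript, *Irf3* had 182, *Irf1* 149, *Stat2* 129 and *Irf2* 125 in the shRNA 1 table. *Ddx58* had 104 and *Adar* 73.9 on that scale, the reverse of their order per kb of merged exons. The median log2 ratio of the members ran from 0.0023 to 0.049 under other scalings and minimum means. The ratio of *Dtx3l* was 0.35 with tables scaled to their sums and 0.34 with centring on genes with a mean of at least 100. The counts moved more. Of the 36 members in both tables, 30 reached a mean of 10 in each and 16 a mean of 100. Higher in the shRNA 2 table were 7 of 30 members at 1.1-fold (17.8% of all genes), 0 at 1.5-fold (0.83%), 2 with tables scaled to their sums (*Dtx3l* and *Parp12*; 4.32%) and 2 of 36 with no minimum (*Mx1* and *Dtx3l*; 6.52%), in place of 1. Lower were 5 of 30 members at 1.1-fold (18.2%) and 2 of 36 with no minimum (*Ifi27* and *Isg15*; 6.75%), in place of 0. The added genes of the last setting had means below 10, and the offset of the sums was 0.057 in place of 0.072. The share of promoters with a match was 27.5% where CT had to follow and 48.4% in the RefSeq windows of 31 members, against 3.99% of the 27025 genes there, a window added after the data were seen. No paired analysis was possible because the result comes from no test.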

Other observations

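The genes and motif in this part were chosen after the values were seen. Around *Parp14*, *Dtx3l* and *Parp9*, 6 other genes within 150000 bases were listed, 3 with a log2 ratio above 0 and 3 below. *Hspbap1*, next to *Parp14*, had means of 37.6 and 55.6 and a log2 ratio of 0.49, and *Dirc2* beyond it 0.19. On the far side of *Parp9*, *Kpna1* had -0.13, *Wdr5b* -0.087 and *Fam162a* -0.21, and *Ccdc58* had 0.28. Of the 14 listed genes of the Parp family, the 11 that are not members had log2 ratios from -0.32 for *Parp3* to 0.18 for *Parp6*, with 4 above 0 and 7 below. Their median was -0.0016, and *Parp4*, *Zc3hav1* and *Parp2*, counted as below, lay at -0.00097, -0.0016 and -0.0051.

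*Irf5*, a transcription factor that drives inflammatory cytokines, had means of 16.1 and 29.8 and a log2 ratio of 0.82 with a counting error of 0.12, at percentile 99.6 of all genes. *Trim30a* had means of 21.0 and 15.7 and a ratio of -0.49 with an error of 0.14, and *Tlr3*, the endosomal sensor of double-stranded RNA, 125 and 105 with -0.32 and 0.055. *Irf5* and *Tlr3* are the adaptor and sensor genes counted above as differing by more than 25%, and *Trim30a* the further interferon-stimulated gene.

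The gamma-activated sequence, known from promoters that respond to interferon gamma, has a core of TTC and GAA separated by any 3 bases. It was found in the promoter windows of 8 of the 40 members (20.0%), against 8.23% of all annotated genes. Of the 8, 4 lacked the GAAA repeat, namely *Isg20*, *Ifi35*, *Ifit2* and *Irf1*.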
